A study of Mus musculus with 5 samples.

Results

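The genes described here build the anchor that holds basal keratinocytes to the skin's basement membrane. They are Lama3 and Lamb3, which encode 2 chains of laminin-332, and Itga6, Itgb4, Col17a1, Plec and Dst, which encode the hemidesmosome. Itga3 and Cd151, a laminin receptor chain and its tetraspanin partner, complete the set. They were chosen by symbol, as a set proposed with earlier results of these data known, and all 9 were found among the 56691 rows of the count table and passed the filter on low counts that left 18583 genes. Libraries came from back skin cells of mice aged 28 days. In 2 bulk libraries, labelled as WT basal keratinocytes, the whole cell population was taken. In 3 libraries, labelled Lrig1 positive, cells had been sorted for GFP. Lrig1 encodes a membrane protein that restrains EGF receptors and marks stem cells of the upper hair follicle. Bulk 1 and GFP 1 share the title number 4143, bulk 2 and GFP 2 share 4145, and GFP 3 has 4146. A shared number was read as 1 animal. The labels do not say so, and their genotype entries differ within each number. How GFP was expressed, from which promoter, and how cells were gated is not given in the sources used here. Title numbers differ within each group, but the labels do not call them animals, so p-values measure the spread between these libraries, part of which may be technical.

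Hemidesmosomes are plaques on the basal face of a keratinocyte. The α6β4 integrin and the transmembrane collagen XVII bind laminin-332 outside the cell, and plectin and the epithelial form of dystonin tie them to keratin filaments inside it. The α3β1 integrin binds the same laminin from focal adhesions, and Cd151 associates with both integrins. In skin these genes are known from inherited blistering, which loss of laminin-332, collagen XVII or α6β4 causes, and from stem cells, in which high α6 and β1 integrin mark attachment to the basement membrane.

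Libraries held 56829330 to 105887450 counts. Markers of the labelled cell type were abundant: Krt5, Krt14, Krt15 and Trp63 summed to 19000 and 21430 CPM (counts scaled to a common library size with TMM) in bulk 1 and 2 and to 39000, 32430 and 28780 CPM in GFP 1, 2 and 3. None of these 4 was called. Krt5, Krt14 and Krt15 were each higher in every sorted library than in both bulk libraries. Trp63 overlapped, at 391.5 and 362.5 CPM in bulk and 402.1, 388.9 and 506.4 CPM in GFP 1, 2 and 3. The suprabasal markers summed to 21370 and 16680 CPM in bulk and to 8557, 12020 and 8517 CPM in sorted cells, and 3 of 7 were called lower. Hair matrix and inner root sheath markers summed to 1001 and 1957 CPM in bulk and to 40.1 CPM or less in each sorted library, with 6 of 6 called lower. Melanocyte and immune markers, 5 of 5 called lower in each list, summed to 109 to 263 CPM and to 222 to 232 CPM in bulk, against 4.92 to 9.73 CPM and 16.8 to 31.7 CPM in sorted cells. Fibroblast markers, 2 of 6 called lower, summed to 196 and 153 CPM in bulk and to 168, 36.1 and 9.56 CPM in GFP 1, 2 and 3. No marker gene in these lists was at 0 in all libraries. The part of these cells in the results below was not tested. Schwann and endothelial cells also carry α6 integrin. Their marker lists stayed at or below 5.13 CPM and 3.31 CPM in sum in every library, with 1 of 4 and 2 of 4 markers called lower. The part of these cells in the Itga6 values was not tested either. GFP 3 was the only library rich in Xist, the RNA that silences an X chromosome in females, with 53714 counts against 0 to 8 elsewhere. In bulk samples, fewer cells of a type and less RNA per cell cannot be told apart.

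Levels of the anchoring genes were higher in sorted cells for the laminin β3 chain, collagen XVII and the integrin α chains in every library pair across groups, by 1.32-fold to 1.57-fold on average. With edgeR's quasi-likelihood test no member was called, that is, none reached an adjusted p (Benjamini-Hochberg over all tested genes) below 0.05. At an unadjusted p below 0.05 there were 2, Lamb3 and Itga3, both higher, a state shared by 4.28 percent of all tested genes. The DESeq2 Wald test called 1, Lamb3 (adjusted p = 0.0171), where it called 1.01 percent of all genes higher and 7.05 percent lower. Of the 9, limma-voom called 0, with 0.199 percent of all genes higher and 5.32 percent lower. Over all tested genes edgeR called 0.145 percent higher and 5.14 percent lower, so a count of 0 among 9 genes is close to that background. The median log2 change of the 9 genes was 0.40, against 0.05 over all genes tested, and 7 of the 9 changes were positive, as were 54.4 percent of all. In 4 of 9 genes every sorted library lay above both bulk libraries, which was so for 14.6 percent of all tested genes. None lay wholly below, which was so for 18.5 percent.

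Promoter sequence is shown for Lamb3, Col17a1 and Itga3, the genes of that group of 4 with an entry in RefSeq's promoter table. Of the 9 genes 5 matched it. Each window, from build GRCm38.p6, runs from 250 bases before to 50 bases after a start site, 5′ to 3′ on the gene's strand. The count table was made on another build, so the coordinates apply to the printed sequence only. Capitals mark exact matches on either strand to 1 of 4 motifs. The motif of AP-1 was spelled TGACTCA. For the GC box, bound by Sp1, the letters GGGCGG were searched. The TATA box, near which transcription can start, was TATAAA. For AP-2, a factor of epidermal cells, the search was for GCCNNNGGC, which can share letters with a GC box. The Lamb3 window is chr1:193301744-193302043 on the plus strand. The Col17a1 window is chr19:47691993-47692292, and the Itga3 window is chr11:95076665-95076964, both on the minus strand.
Lamb3: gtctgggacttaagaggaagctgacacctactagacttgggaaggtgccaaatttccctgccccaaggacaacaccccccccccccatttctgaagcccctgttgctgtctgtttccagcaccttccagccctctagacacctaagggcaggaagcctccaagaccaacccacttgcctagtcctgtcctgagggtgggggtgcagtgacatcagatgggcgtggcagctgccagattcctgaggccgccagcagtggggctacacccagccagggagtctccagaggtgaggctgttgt
Col17a1: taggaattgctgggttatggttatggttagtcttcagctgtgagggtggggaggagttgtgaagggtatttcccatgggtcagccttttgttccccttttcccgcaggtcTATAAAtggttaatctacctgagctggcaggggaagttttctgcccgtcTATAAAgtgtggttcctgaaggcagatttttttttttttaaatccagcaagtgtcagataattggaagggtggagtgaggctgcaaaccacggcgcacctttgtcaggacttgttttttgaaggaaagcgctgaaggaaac
Itga3: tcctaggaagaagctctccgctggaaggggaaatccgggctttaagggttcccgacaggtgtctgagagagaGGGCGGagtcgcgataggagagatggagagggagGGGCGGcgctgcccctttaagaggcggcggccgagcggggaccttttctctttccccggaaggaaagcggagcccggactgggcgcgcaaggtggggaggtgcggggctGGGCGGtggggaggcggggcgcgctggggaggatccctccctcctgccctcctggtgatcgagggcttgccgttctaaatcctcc
The table has 2 windows each for Lamb3 and Itga3, of which the first listed is printed. The printed Itga3 window holds GGGCGG 3 times, starting at positions -178, -144 and -35 from the start site, a motif found in 35.7 percent of all 32851 windows of this length. The other Itga3 window holds it once, at -246. Col17a1 holds TATAAA at -140 and -91, which 13.6 percent of windows have. Neither Lamb3 window holds any of the 4. TGACTCA, found in 5.20 percent of windows, and GCCNNNGGC, found in 16.6 percent, were in none of the printed windows. Among matched genes outside that group of 4, Cd151 holds GGGCGG and GCCNNNGGC and Dst holds GGGCGG. GC content was 59.3 percent for Lamb3, 46.3 percent for Col17a1 and 66.7 percent for Itga3, with a median of 52.7 percent over all windows. No measurement of binding or methylation accompanies these sequences.

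Of the laminin chains secreted into the basement membrane, Lamb3 separated the groups and Lama3 did not, before the correction for transcript length given further on, after which both did. Lamb3 (ENSMUSG00000026639.19), the β3 chain found in laminin-332, was at 295.7 and 336.5 CPM in bulk 1 and 2 and at 481.4, 482.8 and 526.6 CPM in GFP 1, 2 and 3. Each sorted library exceeded both bulk libraries, and the spread within each group was small beside the gap. Its log2 change, sorted over bulk, was 0.65 ± 0.21 (SE), the largest of the 9, with an edgeR adjusted p of 0.155. With the title number as a block it was called (0.61 ± 0.15, edgeR adjusted p = 3.03e-04). Lama3 (ENSMUSG00000024421.17), which encodes the α3 chain, was at 144.1 and 157.3 CPM in bulk and at 149.9, 187.8 and 237.3 CPM in GFP 1, 2 and 3. GFP 1 lay between the bulk libraries and the other two lay above them. The log2 change of 0.35 ± 0.24 was not called (edgeR adjusted p = 0.542). The ratio of Lamb3 to Lama3 CPM was 2.05 and 2.14 in bulk and 3.21, 2.57 and 2.22 in GFP 1, 2 and 3, higher in each sorted library. With the trend over transcript length removed it was 2.15 and 2.50 in bulk and 2.65, 2.48 and 2.28 in sorted cells, which overlap. The share of other gene pairs whose ratio separates the groups with the trend kept is not given here. The remaining chain of this laminin is not analysed here.

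Among the laminin receptors, both α chains were higher in each sorted library while the β4 chain overlapped, before the correction for transcript length given further on. Itga6 (ENSMUSG00000027111.17), the α6 chain that pairs with β4 in hemidesmosomes, was at 480.1 and 370.7 CPM in bulk and at 605.5, 539.4 and 782.2 CPM in GFP 1, 2 and 3. Every sorted value exceeded both bulk values. The change in log2 units was 0.59 ± 0.26 (edgeR adjusted p = 0.318), and it was called with the block (0.44 ± 0.15, edgeR adjusted p = 0.0147). Itgb4 (ENSMUSG00000020758.16), whose long cytoplasmic tail binds plectin, was at 344.8 and 496.2 CPM in bulk and at 461.7, 559.3 and 646.7 CPM in sorted cells. GFP 1 lay below bulk 2, so the groups overlapped. After that correction Itgb4 was at 363.7 and 404.1 CPM in bulk and at 564.7, 566.8 and 669.6 CPM in GFP 1, 2 and 3, which do not overlap. Its log2 change before the correction was 0.40 ± 0.26 (edgeR adjusted p = 0.525). The ratio of Itga6 to Itgb4 CPM, 1.39 and 0.747 in bulk and 1.31, 0.964 and 1.21 in sorted cells, overlapped between groups.

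Itga3 (ENSMUSG00000001507.17) encodes the α3 chain that pairs with β1. It was at 239.1 and 305.1 CPM in bulk and at 354.1, 376.5 and 460.4 CPM in GFP 1, 2 and 3. No sorted library reached down to the bulk range. The log2 change of 0.55 ± 0.23 was not called (edgeR adjusted p = 0.302) but was with the block (0.44 ± 0.15, edgeR adjusted p = 0.0121). Itgb1, singled out after its values were seen because it encodes the partner chain, was at 161.1 and 169.5 CPM in bulk and at 240.6, 216.7 and 278.7 CPM in sorted cells, a log2 change of 0.57 ± 0.20 (edgeR adjusted p = 0.208). Cd151 (ENSMUSG00000025510.15), the tetraspanin that holds these integrins in membrane clusters, was at 121.8 and 135.4 CPM in bulk and at 203.7, 169.9 and 123.0 CPM in GFP 1, 2 and 3. GFP 3 lay between the bulk libraries and the other two above them. Its log2 change was 0.36 ± 0.25 (edgeR adjusted p = 0.538), and 0.53 ± 0.14 with the block, where it was called (edgeR adjusted p = 0.00103). That fit gains nothing from GFP 3, which has no bulk library of its number. The ratio of Itga3 to Cd151 CPM was 1.96 and 2.25 in bulk and 1.74, 2.22 and 3.74 in GFP 1, 2 and 3, so GFP 3 stood apart. After removal of the length trend this ratio was 1.97 and 1.85 in bulk and 2.19, 2.27 and 3.54 in sorted cells, higher in each sorted library. The ratio of Itga6 to Itga3 overlapped between groups with the trend kept and with it removed. How many other gene pairs separate the groups is not given here.

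Col17a1 (ENSMUSG00000025064.16), the transmembrane collagen of the plaque, had the highest level per transcript length of the 9 genes in every library. It was at 2143 and 2452 CPM in bulk and at 2592, 3110 and 3417 CPM in GFP 1, 2 and 3. Sorted and bulk values did not overlap, though GFP 1 was close to bulk 2. The log2 change was 0.40 ± 0.27 (edgeR adjusted p = 0.541). Its ratio to Itgb4 CPM ran from 4.94 to 6.21 over the 5 libraries and overlapped between groups, with means of 5.58 in bulk and 5.49 in sorted cells.

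The cytoplasmic linkers, whose transcripts are the longest of the set, did not show this separation before the correction for transcript length. After it Dst did and Plec did not. Plec (ENSMUSG00000022565.16), encoding plectin, was at 680.1 and 960.4 CPM in bulk and at 541.1, 637.6 and 816.2 CPM in GFP 1, 2 and 3. Bulk 1 lay among the sorted libraries and bulk 2 above all of them. Its log2 change was -0.30 ± 0.27 (edgeR adjusted p = 0.652). With the block it was called lower (-0.46 ± 0.16, edgeR adjusted p = 0.0117), but not with the block and the trend over gene length removed (0.14 ± 0.14, edgeR adjusted p = 0.514), where its sign turned. Dst (ENSMUSG00000026131.21), encoding dystonin, was at 678.1 and 901.1 CPM in bulk and at 680.9, 632.1 and 990.6 CPM in sorted cells. Its lowest and its highest value were both in sorted libraries, and the log2 change was -0.04 ± 0.28 (edgeR adjusted p = 0.963). The sign of this change turned without bulk 2, GFP 1 or GFP 2 (0.17, 0.04 and 0.08). The ratio of Itgb4 to Plec CPM was 0.507 and 0.517 in bulk and 0.853, 0.877 and 0.792 in sorted cells. This ratio was close within each group and separated the groups. It still did with the length trend removed, at 0.517 and 0.635 in bulk and 0.694, 0.853 and 0.800 in sorted cells. The ratio of Dst to Plec CPM overlapped between groups with the trend kept. With it removed that ratio was 0.947 and 0.869 in bulk and 1.35, 1.07 and 1.19 in sorted cells, so it separated them as well. Plec is the denominator of both, and the share of other gene pairs that separate the groups is not given here. The Dst row pools transcripts of muscle and nerve forms with the epithelial one, and the GENCODE annotation lists 14 coding transcripts of 776 to 23279 bases for it. Plec has 21, from 254 to 15455 bases. Per-gene counts therefore do not show which form was present.

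**Figure D1:**
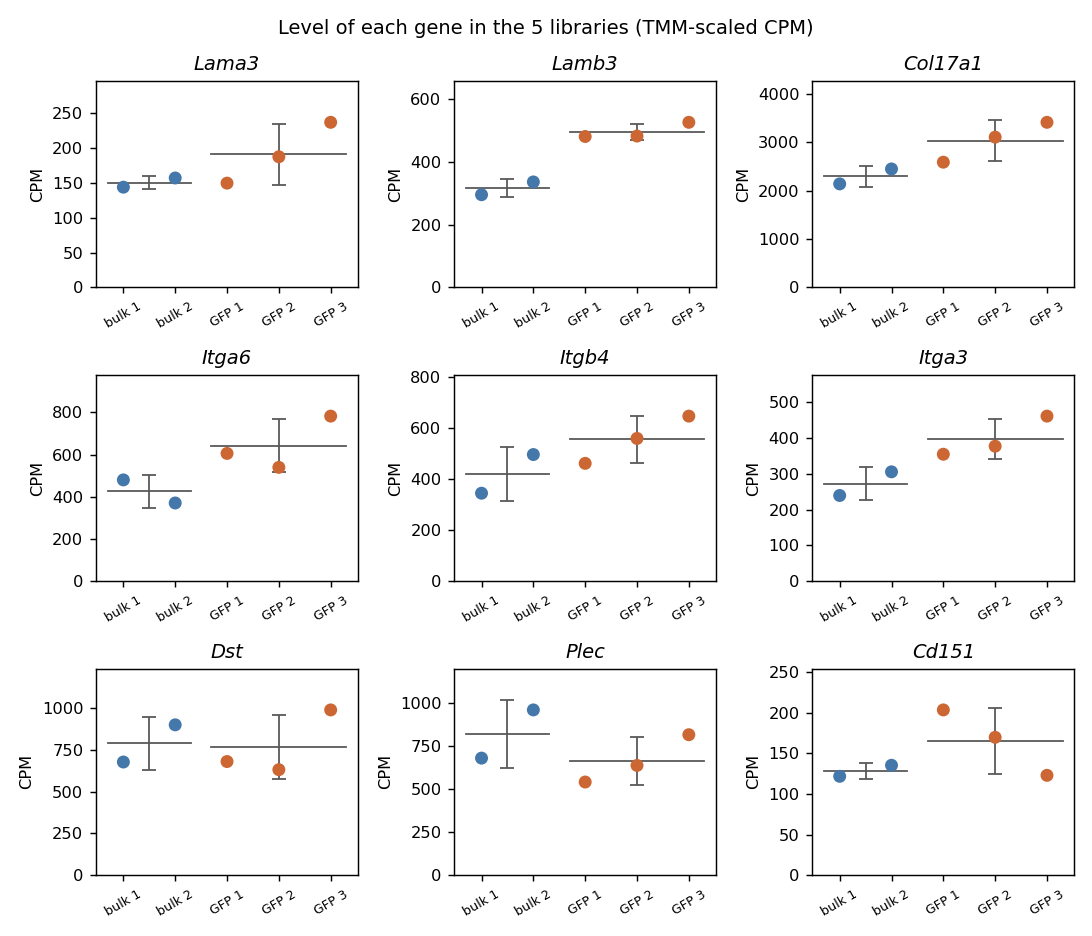
Level of each gene in TMM-scaled CPM (vertical axes, each from 0) in the 2 bulk (blue) and 3 GFP-sorted (orange) libraries, with the group mean (line) and SD (bar). The sorted points of Lamb3, Itga6, Itga3 and Col17a1 lie above both bulk points, and those of the other 5 genes overlap with bulk.

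With the block, 4 of the 9 genes were called higher and 1 lower, against 16.4 and 19.7 percent of all genes in that fit. That fit has 1 residual degree of freedom and borrows its spread from all genes.

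Divided by the length of each gene's longest annotated transcript, levels kept a similar order in both groups. Col17a1 was first at 411 ± 39.1 CPM per kb in bulk (SD, n = 2) and 544 ± 74.7 in sorted cells (SD, n = 3), followed by Itga6 at 98.7 ± 17.95 and 149 ± 29.2 CPM per kb. These 2 did not overlap with each other or with the next gene in either group. In bulk, Cd151, Itgb4, Lamb3, Itga3 and Plec followed with means from 69.0 down to 53.1 CPM per kb, each overlapping with its neighbour in that order. In sorted cells Lamb3 came next at 102 ± 5.28 CPM per kb and overlapped with Itgb4 (89.6 ± 14.9), which overlapped with Cd151 (88.7 ± 21.7), as did Cd151 with Itga3 (81.7 ± 11.5). Plec (43.0 ± 9.03) lay below these in sorted cells and overlapped with Dst (33.0 ± 8.35). Dst was next to last in bulk at 33.9 ± 6.77 CPM per kb. Lama3 was lowest in both groups, at 14.3 ± 0.884 and 18.2 ± 4.15 CPM per kb. For each of these genes, shorter transcripts would give a higher level per kb.

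Libraries differed along gene length, and the anchoring genes are long. The longest transcripts were 1865 bases for Cd151, 4310 to 6208 bases for Itga6, Itga3, Lamb3, Col17a1 and Itgb4, 10548 for Lama3, 15455 for Plec and 23279 for Dst. Over all tested genes the median log2 change, sorted over bulk, was 0.27 for genes under 1 kb, -0.08 for 4721 genes of 4 to 8 kb, -0.37 for 794 genes of 8 to 16 kb and -0.43 for 37 genes over 16 kb. The differences sat mainly in bulk 2 and GFP 1: for genes of 8 to 16 kb their median deviations from the mean of the 5 libraries were 0.44 and -0.43 on the log2 scale. Within its own length bin, each of the 9 genes was below the median deviation in bulk 1, and 8 were in bulk 2, all but Cd151. In GFP 1 all 9 were above it. In GFP 2 Dst and Plec were below and 7 above, and in GFP 3 only Cd151 was below.

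**Figure D2:**
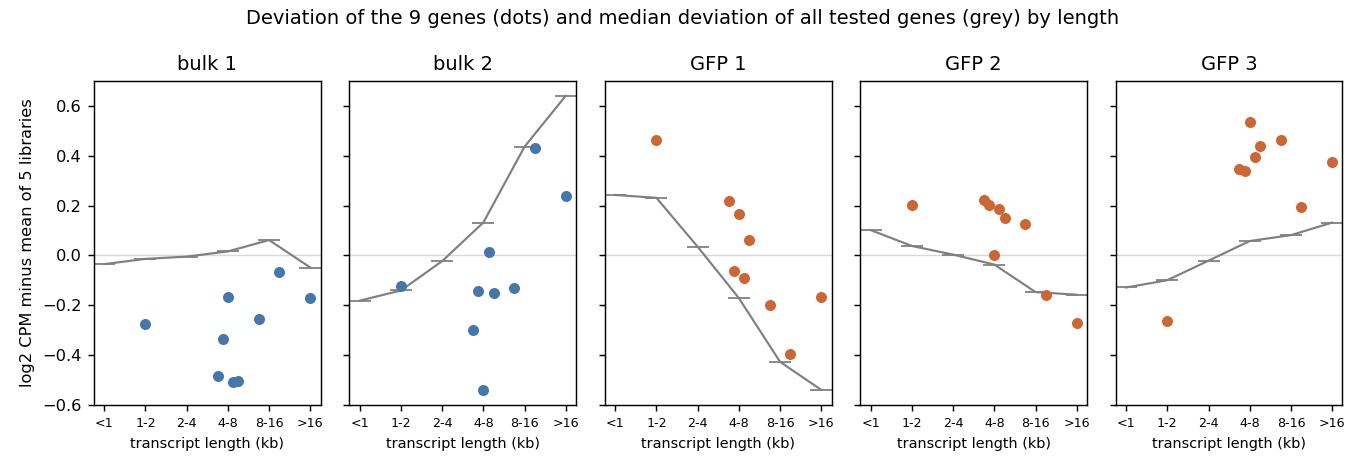
Deviation of log2 CPM from the mean of the 5 libraries (vertical axis) against transcript length in kb (horizontal axis), 1 panel a library, with dots for the 9 genes and a grey line for the median of all tested genes in each length bin. Bulk 2 rises to 0.64 and GFP 1 falls to -0.54 over 16 kb. The dots lie mostly under the line in bulk and over it in sorted cells.

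When each library's trend over length and GC content was removed, all 9 log2 changes were positive, against 52.8 percent of all genes in that fit. Their median was 0.65, with a median of 0.03 over all genes. Lamb3 was called (0.81 ± 0.16, edgeR adjusted p = 0.0293) and no other member was, while 0.392 percent of all genes were called higher and 5.64 percent lower. A least squares trend in place of the robust one called 4 members, Lama3, Lamb3, Itgb4 and Itga3, with 1.93 percent of all genes higher and 4.68 percent lower, but moved the median of all genes to 0.25. The change of Lama3 moved to 0.72 ± 0.17 (edgeR adjusted p = 0.0551), that of Dst to 0.62 ± 0.24 (0.225) and that of Plec to 0.20 ± 0.18 (0.653). Lama3 was then at 143.3 and 118.3 CPM in bulk and at 207.5, 196.2 and 241.8 CPM in sorted cells. Dst was at 666.1 and 553.3 CPM in bulk and at 1099, 712.0 and 995.3 CPM in sorted cells. In 7 of 9 genes the sorted libraries then lay above both bulk libraries, against 15.2 percent of all genes. The exceptions were Plec and Cd151. Cd151, the shortest, moved the other way, from 0.36 to 0.26 ± 0.17 (edgeR adjusted p = 0.52). With the block as well, 8 of 9 were called higher and Plec was not, where 13.7 percent of all genes were called higher and 16.2 percent lower. The removed trend includes any true difference between the groups that follows length, which cannot be told apart here. The trend was read at the length of each gene's longest annotated transcript. Coding transcripts ran from 776 to 23279 bases for Dst, 254 to 15455 for Plec and 5551 to 10548 for Lama3. They ran from 1029 to 4867 bases for Lamb3, 549 to 4861 for Itga3 and 511 to 1865 for Cd151. If shorter forms were the ones present, the corrected values of these genes could differ. That includes the sign of Dst, its separation and the call of Lamb3. Which form was present was not tested.

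**Figure D3:**
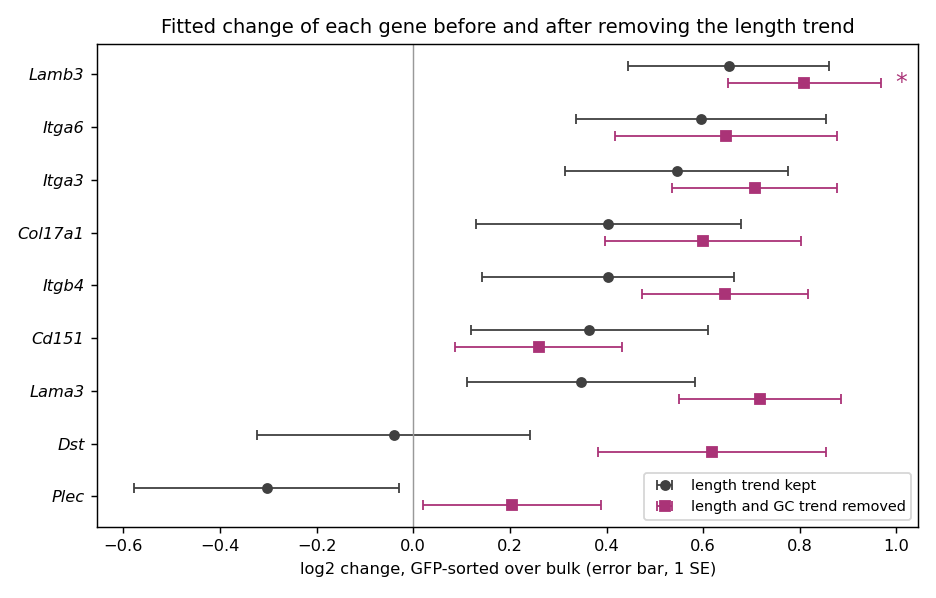
Log2 change of each gene, GFP-sorted over bulk, with 1 SE (horizontal axis), with the trend over length kept (grey circles) and removed (purple squares). A star marks an edgeR adjusted p below 0.05. Dst and Plec move from -0.04 and -0.30 to 0.62 and 0.20, and only Lamb3 with the trend removed has a star.

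With the length trend kept, the 9 genes did not share one profile over the libraries. GFP 3 held the highest value of 7 of them, while Plec peaked in bulk 2 and Cd151 in GFP 1. The share of all genes that peaked in GFP 3 is not given here. With the trend removed, Plec was highest in GFP 3 (837 CPM, against 636.7 in bulk 2). Dst (1099 CPM) and Cd151 (185.2 CPM) were then highest in GFP 1. The other values in this paragraph keep the trend. Summed over the 9, levels were 5127 and 6115 CPM in bulk and 6070, 6696 and 8000 CPM in GFP 1, 2 and 3, with GFP 1 just below bulk 2. Without GFP 3 no member was called, and the median log2 change was 0.31. Col17a1 lay nearest to the mean centred log2 profile of the 9, with a root mean square difference of 0.07, and Cd151 and Plec farthest, at 0.34 and 0.33. Among 5189 non-member genes whose mean log2 CPM reached 5, the 5 nearest to that mean profile over the 5 libraries were Lmf2 (0.02), Pfkp (0.03), Nolc1 (0.04), Hsf1 (0.04) and Ikbke (0.04). Lmf2 was at 56.7 and 64.8 CPM in bulk and at 70.3, 70.9 and 85.3 CPM in sorted cells. None of these 5 was called.

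Beyond these 9 genes, 18 others of the basement membrane were tested. Of the 18, edgeR called 0, with 3 at an unadjusted p below 0.05, all lower, as were 11.6 percent of all genes at that p. The DESeq2 Wald test called 2 lower and limma-voom 1 lower, where they called 7.05 and 5.32 percent of all genes lower. The list's median log2 change was -0.04, with 9 of 18 positive, and 0.27 with 13 of 18 positive once the length and GC trend was removed. With the block as well, 8 were called higher and 2 lower, where 13.7 percent of all genes were called higher and 16.2 percent lower. The 3 with the smallest p were Nid1 and Nid2, encoding the nidogens that link laminin to collagen IV, and Fras1, encoding a protein of the embryonic basement membrane. Nid1 was at 2.12 and 2.68 CPM in bulk and at 0.760, 1.16 and 0.589 CPM in sorted cells, a log2 change of -1.53 ± 0.39 (edgeR adjusted p = 0.0722). Nid2 was at or below 0.535 CPM in every library. Fras1 had 3.44 and 6.60 CPM in bulk and 2.33, 2.40 and 1.80 CPM in sorted cells (edgeR adjusted p = 0.11). Fibroblasts, whose summed markers are given above, also make nidogens, and their part was not tested.

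Of 24 other cell-matrix adhesion genes, edgeR called 1, Itga9, lower and none higher, with 8 at an unadjusted p below 0.05, 5 higher and 3 lower. Over all genes tested 4.28 percent were higher and 11.6 percent lower at that p. The DESeq2 Wald test called 2 lower and limma-voom 1 lower, against 7.05 and 5.32 percent of all genes, and neither called any higher. The median log2 change was 0.20, with 19 of 24 positive, against 54.4 percent of all genes. Itga9, encoding an integrin chain for tenascin and other ligands, was at 0.886 and 2.57 CPM in bulk and at 0.228, 0.0754 and 0.0107 CPM in sorted cells. It fell by 4.05 ± 0.89 in log2 units (edgeR adjusted p = 0.0391), a low-count gene. With 1 library left out its log2 change ran from -3.08 without bulk 2 to -5.41 without GFP 1, and it was not called without bulk 2 (adjusted p = 0.352) or GFP 2 (-3.89, 0.0891). After removal of the length and GC trend it was -3.66 (edgeR adjusted p = 0.0728), and with the block as well it was called (-2.99, edgeR adjusted p = 5.70e-05). After that removal the adhesion list's median was 0.26, with 21 of 24 positive, as were 52.8 percent of all genes. With the block as well, 10 were called higher and 3 lower, against 13.7 and 16.2 percent of all genes.

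**Figure D4:**
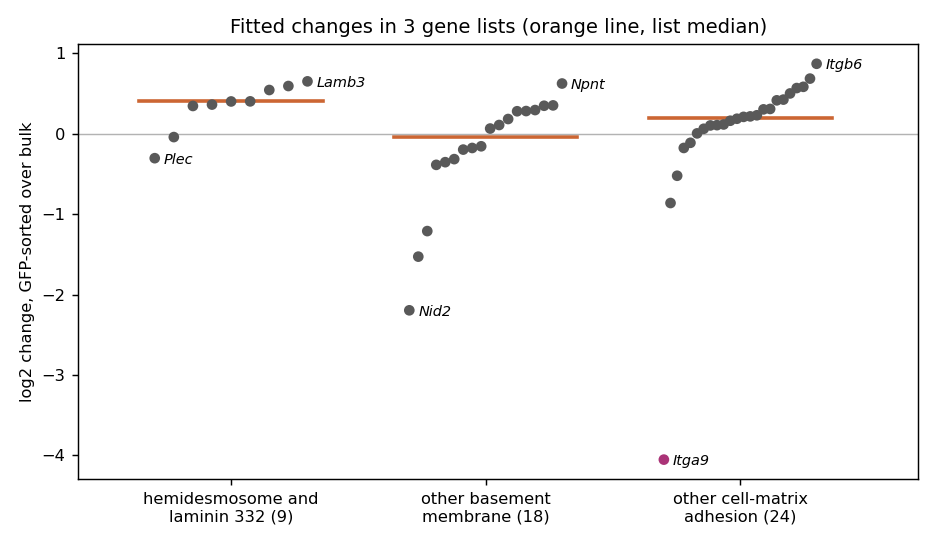
Log2 change, GFP-sorted over bulk (vertical axis), of each tested gene in 3 lists, with the list median as an orange line and the called gene, Itga9, in purple. The medians are 0.40, -0.04 and 0.20, and the highest and lowest gene of each list is named.

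In the GENCODE annotation 5 of the 9 genes share exon bases with another gene. Plec shares 205 exon bases with Parp10 on the same strand, which had 1471 to 2808 counts a library against 40676 to 107045 for Plec. Dst shares 1037 bases with the opposite-strand gene Gm26788, which had 289 to 1442 counts against 40561 to 100429 for Dst. Cd151 shares 193 of its 2741 exon bases with Gm10575 (60 to 136 counts) and Lama3 197 of 10745 with Gm29200 (12 to 29 counts), both on the opposite strand. Itgb4 shares 537 of 7015 with B230344G16Rik on the opposite strand, which has no matching ID in the count table. Strandedness is not given in the sources used here, so reads of the opposite-strand genes could not be separated. For Plec and Parp10, on the same strand, a strand setting would not separate them. Each of the 9 genes had 7284 to 318978 counts in each library.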

How the data were processed

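The authors deposited raw counts, whole numbers for each Ensembl gene ID, in 1 column a library. Per the submitters' processing notes, STAR and GRCm39 were used. How reads were counted, with which annotation and strand setting, is not given in the sources used here. Symbols and transcript lengths came from GENCODE M21 (build GRCm38) by ID without version: 52073 of 56691 IDs had a symbol.

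Genes were kept by filterByExpr (minimum count 10, minimum total 15) and tested with edgeR 4.0.16 in R 4.3.3, by the two-sided quasi-likelihood test of group after TMM scaling, adjusted by Benjamini-Hochberg over 18583 genes at 0.05. The script was tested on simulated data. CPM are TMM-scaled. Alternatives used DESeq2 1.42.0, limma 3.58.1, other filters and scalings, each library left out, a block, and removal of a loess trend (span 0.3) of centred log2 CPM (prior count 2) on log2 length and GC content, fitted with robust weights on the 97.4 percent of tested genes with a length. Robust weights were chosen after seeing that least squares moved the median of all genes to 0.25.

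The block takes 2 pairs from the title numbers. Across genes, bulk 1 minus bulk 2 correlated with GFP 1 minus GFP 2 (Pearson r = 0.474), with the length trend kept. For genes of 8 to 16 kb the median deviations were 0.06 and 0.44 in bulk 1 and 2. In GFP 1 and 2 they were -0.43 and -0.15, so both differences followed length in the same direction. The part of that trend in the correlation was not tested. Libraries of a group differed beyond sampling noise, with a chi-square of 134 to 407 per degree of freedom.

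Named were the 9 members, the called genes of the 2 added lists (at most 4 a direction, or the 3 with the smallest p where none was called) and the 5 genes nearest in profile. The members and lists were chosen with earlier results of these data known. Promoter motifs were exact letter matches.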

Additional observations from a re-analysis of the deposited data

How the results depend on the processing

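No member was called under DESeq2 size factors, library size alone, limma-voom, either other low-count filter or with any 1 library left out. In those settings the median log2 change of the 9 genes ran from 0.29 to 0.51, and it was 0.29 to 0.51 over the 5 fits that each left out a library, which with 1 bulk library assume that it varies like the sorted ones. After removal of the length and GC trend the median was 0.65 (0.84 without robust weights, chosen after seeing the data), and 1 member (4 without robust weights: Lama3, Lamb3, Itgb4 and Itga3) was called higher. Of all genes, 0.392 percent were called higher with the trend removed and 1.93 percent without robust weights. DESeq2's Wald test called 1 member higher, where it called 1.01 percent of all genes higher. With the replicate block 4 members were called higher and 1 lower, against 16.4 and 19.7 percent of all genes. With the block and the trend removed 8 were called higher, against 13.7 percent. Both block fits have 1 residual degree of freedom and gain nothing from GFP 3. The sign turned for Dst and Plec with the trend removed (0.62 and 0.20), with the block as well (0.54 and 0.14) and without robust weights (0.80 and 0.41). For Dst it also turned in 3 of the fits without a library, whose values ran from -0.27 to 0.17.

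Of the other basement membrane genes, called lower were 1 with library size alone, 2 by DESeq2's Wald test, 1 by limma-voom and 3 with no low-count filter. The replicate block gave 2 higher and 3 lower, the block with the trend removed 8 and 2, and the trend fit without robust weights 3 higher. Of the other adhesion genes, 2 were called lower by DESeq2's Wald test, 0 with at least 1 CPM in 2 libraries (Itga9 was not tested), and 0 with the trend removed, robust or not, where 1 and 4 were called higher. No low-count filter gave 1 higher, the block 7 higher and 3 lower, and the block with the trend removed 10 and 3. For both lists, the block called 16.4 percent of all genes higher and 19.7 percent lower beside these counts. The block with the trend removed called 13.7 and 16.2 percent. Library size alone called 1059 of 18583 genes lower, and the filter at 1 CPM called 674 of 13161 lower. No low-count filter called 1660 of 32815 lower and 258 higher. DESeq2's Wald test called 7.05 percent lower and limma-voom 5.32 percent. With the trend removed 0.392 percent of all genes were called higher, and 1.93 percent without robust weights. Fits without a library gave 0 to 1 lower.

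Over all genes 27 were called higher and 955 lower. Higher calls were 10 with library size alone, 188 by DESeq2's Wald test, 258 with no low-count filter (and 1660 lower), 71 with the trend removed and 350 without robust weights. There were 3040 higher and 3652 lower with the block, and 2479 and 2941 with the trend also removed. Without a library, higher calls ran from 1 (without bulk 2) to 96 (without GFP 3) and lower calls from 479 to 1109. Library size alone moved the median of all genes from 0.05 to -0.07 on the log2 scale, and that of the members to 0.29. The cause of these shifts was not tested. With at least 7284 counts for each member in each library, the spread between libraries rather than depth set the errors of the main fit. With the block that spread was borrowed from all genes, and the members' SE ran from 0.143 (Lama3) to 0.174 (Col17a1). Calls with the block therefore do not rest on each gene's own spread alone.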
